A study of Mus musculus with 2 samples.

Results

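The 35 genes described here carry cells through DNA replication and mitosis, and were followed through the crypt epithelium, T cells, plasma cells and B cells of mouse small intestine. They were taken by symbol from a fixed list, 35 of the 56980 genes in the count matrices, and every symbol was found in both libraries. Of these, 11 act at licensing and replication (S genes), 22 at chromosome condensation, spindle assembly and division (G2/M genes), and Stmn1 and Cks1b were kept apart from both sums. Single cells had been profiled by droplet RNA sequencing (10x Genomics) in 1 library labelled model and 1 library labelled control, from intestine without mesentery or Peyer's patches. The labels do not say how the model animal was treated, how many animals were pooled, the strain, age or sex, or which stretch of intestine was used. The series title names simulated microgravity, radiation and a compound called CB001, and no library labelled with that compound is analysed here.

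In a dividing cell, origins are loaded with the MCM helicase before S phase, and the sliding clamp Pcna and enzymes that make deoxynucleotides then serve the replication fork. E2F factors drive many of these genes. Cyclins A and B with Cdk1 take the cell into mitosis, where kinesins, Aurora and Polo kinases and the chromosomal passenger complex build and control the spindle, and the anaphase promoting complex ends it. Many G2/M genes are held down in resting cells by the DREAM complex, which binds a promoter element called CHR, and are turned on later by B-MYB and FOXM1. In the gut, crypt stem and transit-amplifying cells divide rapidly, villus enterocytes do not, and most plasma cells have left the cycle.

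Because the results below set S genes against G2/M genes, the promoters were read first. RefSeq promoters (GRCm38.p6, 250 bases before to 50 after the annotated start) were found for 30 of the 35 members, and not for Mcm4, Ccna2, Aurkb, Tpx2 and Stmn1. The build differs from the GRCm39 build of the count matrices, which gave no coordinates. The CHR word TTTGAA, searched on both strands, lay in 14 of 19 G2/M promoters and in 1 of 10 S promoters (Mcm2), against 17.9% of all 32851 promoters of that length. An exact E2F word (TTTCCCGC, TTTGGCGC, TTTCGCGC or TTTGCCGC, both strands) lay in 5 of 10 S promoters, those of Mcm3, Mcm5, Mcm6, Mcm7 and Pclaf, and in 1 of 19 G2/M promoters (Cdk1), against 2.27% of all. CCAAT, which the NF-Y factor binds, was in 17 of 19 G2/M and 9 of 10 S promoters, against 37.4% of all. These are matches of letters in a window, not shown sites.

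**Figure D1:**
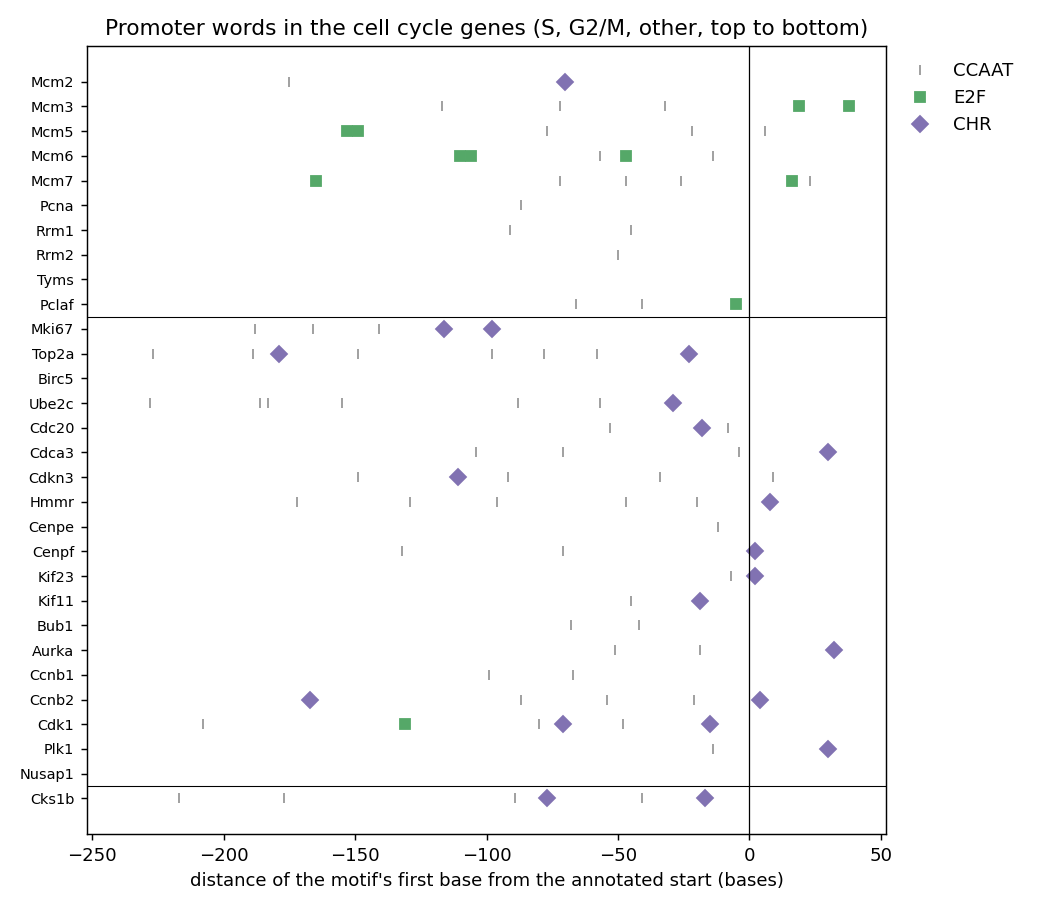
Distance in bases (horizontal axis) of each CHR, E2F and CCAAT word from the annotated start of the 30 members with a RefSeq promoter, 1 gene per line with S genes on top, then G2/M genes and Cks1b. CHR words cluster near the start of G2/M genes, 12 of their 18 matches within 50 bases of it, and E2F words lie in 5 of the 10 S genes.

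4 G2/M and 3 S promoters are shown to let these words be seen in place, each from position -120 to 29 with 0 at the annotated start, so upstream sequence and the beginning of the first exon. The capitals mark CHR words in the first 4 and E2F words in the last 3. In Ube2c, Mcm3 and Pclaf the capitals are the word as read on the other strand, and the 12 capitals of Mcm6 are 2 overlapping E2F words, 1 per strand. A further CHR word of Ccnb2 (at -167) and further E2F words of Cdk1 (-131) and Mcm3 (38) fall outside these stretches. In GRCm38.p6 the stretches are chr10:69352883-69353032 for Cdk1, chr9:70421525-70421674 for Ccnb2, chr4:118437314-118437463 for Cdc20, chr1:20820283-20820432 for Mcm3 and chr1:128359676-128359825 for Mcm6, all on the minus strand, and chr2:164769809-164769958 for Ube2c and chr9:65890203-65890352 for Pclaf on the plus strand.
Cdk1: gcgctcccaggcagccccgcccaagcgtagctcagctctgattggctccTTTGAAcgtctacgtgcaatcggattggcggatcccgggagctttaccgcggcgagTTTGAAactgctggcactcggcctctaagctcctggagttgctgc
Ccnb2: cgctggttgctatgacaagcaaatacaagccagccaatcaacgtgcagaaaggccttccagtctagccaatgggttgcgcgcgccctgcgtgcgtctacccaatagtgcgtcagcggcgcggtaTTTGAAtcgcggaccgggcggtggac
Cdc20: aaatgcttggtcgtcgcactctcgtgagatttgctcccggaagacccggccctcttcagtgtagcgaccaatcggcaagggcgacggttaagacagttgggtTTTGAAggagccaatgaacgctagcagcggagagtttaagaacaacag
Ube2c: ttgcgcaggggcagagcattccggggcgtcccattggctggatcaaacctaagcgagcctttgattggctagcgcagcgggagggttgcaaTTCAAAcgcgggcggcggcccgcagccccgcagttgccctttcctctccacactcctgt
Mcm3: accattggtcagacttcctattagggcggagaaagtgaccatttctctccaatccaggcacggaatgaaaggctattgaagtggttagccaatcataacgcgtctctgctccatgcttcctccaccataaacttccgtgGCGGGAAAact
Mcm6: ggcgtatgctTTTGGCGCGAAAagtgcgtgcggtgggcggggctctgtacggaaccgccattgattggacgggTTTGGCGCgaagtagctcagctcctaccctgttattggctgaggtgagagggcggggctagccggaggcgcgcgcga
Pclaf: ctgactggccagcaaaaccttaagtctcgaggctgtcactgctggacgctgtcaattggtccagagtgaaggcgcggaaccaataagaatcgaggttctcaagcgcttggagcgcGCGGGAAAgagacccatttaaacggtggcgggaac

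The kept cells numbered 7913 in the model and 7329 in the control library, with a median of 3761 and 3636 unique molecular identifiers (UMIs, tags that each mark 1 captured RNA molecule). Their median mitochondrial share was 5.38% in the model and 10.8% in the control library. The libraries shared 28 cell barcodes, 12 of them among kept cells. Cells were clustered without the 35 members, 199 further cycle genes and histone genes, so that the members did not shape the classes, and classes were named from marker genes and are written with "-like". Crypt-like cells numbered 1219 in the model and 893 in the control library. They came from cluster 8, led by Olfm4, Slc12a2, Ascl2 and Lgr5 with 15 of 18 crypt markers, and cluster 7, led by Rbp7, Gsdmc4 and Dmbt1 with 3 of 18. Cluster 7 gave 646 of the model and 421 of the control cells, so the name rests on few markers there. Another cluster, of 821 model and 333 control cells, passed 4 crypt markers but stayed unnamed for low RNA. It enters no crypt-like value below. A low-RNA cluster of 174 model and 205 control cells with T cell markers was likewise left out of the T-like cells. The effect of leaving these cells out was not tested. With cycle genes kept in the clustering, a cluster of 255 model and 97 control cells stayed unnamed. It was led by Car4 and Ms4a18 and shared Rbp7, Gsdmc4, Bmp3 and Krt19 with the top genes of cluster 7. T-like cells numbered 2248 and 1098, plasma-like cells 670 and 505, and B-like cells 279 in the model and 4 in the control library, too few there to compare. Levels are given as CPM, UMIs per 1000000 UMIs of all genes other than immunoglobulin genes, which made up 46.9% of plasma-like UMIs in the model and 47.9% in the control library. With 1 library per group nothing could be tested, all intervals are exact 95% intervals of counting error alone, and no difference has a replicate check.

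Levels were ordered over crypt-like, T-like, plasma-like and B-like cells and enterocyte-like cells, which absorb nutrients on the villus, and no other class entered this order. Among these the summed level of the G2/M genes was highest in crypt-like and lowest in enterocyte-like cells. It was 2276 CPM in the model and 2520 CPM in the control library in crypt-like cells, and 60.0 and 61.7 CPM in enterocyte-like cells. Plasma-like cells held 1435 CPM in the model and 876 CPM in the control library. T-like cells held 864 and 897 CPM, and B-like cells of the model library 1530 CPM. Thus the order of plasma-like over T-like cells held in the model library, whereas in the control library the intervals of the plasma-like level (838 to 916) and the T-like level (upper bound 928) overlapped. Of the 22 G2/M genes, 22 were at their highest of these classes in crypt-like cells in the control library and 20 in the model library, where Mki67 was higher in plasma-like and Aurkb in B-like cells. Single G2/M genes stood 17.1-fold (Kif23) to 139.7-fold (Hmmr) higher in crypt-like than in enterocyte-like cells of the model library, and 15.5-fold (Kif23) to 102-fold (Cenpf) higher in the control library.

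The S genes were ordered differently. Their summed level was 1449 CPM in B-like cells of the model library. It was 917 CPM in the model and 942 CPM in the control library in crypt-like cells, 717 and 776 CPM in T-like cells, and 673 and 509 CPM in plasma-like cells. Enterocyte-like cells held 99.2 and 82.6 CPM. B-like cells were highest for 10 of 11 S genes in the model library, the exception being Tyms, the thymidylate synthase. Without them, in the control library, crypt-like cells were highest for 7 of 11, T-like cells for Mcm2, Mcm3 and Mcm4, and plasma-like cells for Rrm2, a subunit of ribonucleotide reductase. G2/M genes accordingly made up 71.3% and 72.8% of all S and G2/M UMIs in crypt-like cells of the model and control library, 68.1% and 63.2% in plasma-like cells, 54.6% and 53.6% in T-like cells and 51.4% in B-like cells of the model library.

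**Figure D2:**
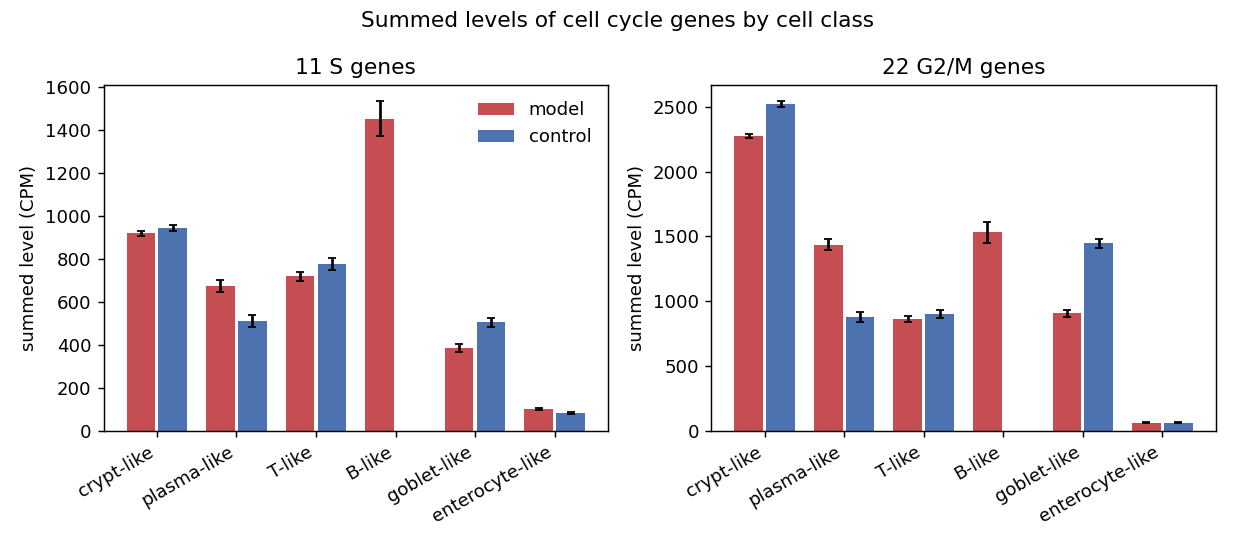
Summed level (vertical axis, CPM) of the 11 S genes on the left and the 22 G2/M genes on the right in 6 cell classes, model beside control, with exact Poisson 95% intervals, and no control bar for B-like cells, of which there were 4. Crypt-like cells lead for G2/M genes at 2276 CPM in the model and 2520 CPM in the control library, and B-like cells of the model library lead for S genes at 1449 CPM.

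In crypt-like cells no member passed the size rule in either direction. None of the 35 members reached a model over control ratio of 1.5 or its inverse with at least 50 UMIs, the size rule used here, against a background of 2.41% of 12718 genes higher and 4.95% lower in these cells. The S sum had a ratio of 0.974 (0.956 to 0.993) and the G2/M sum a ratio of 0.903 (0.893 to 0.914). 20 of 22 G2/M genes and 6 of 11 S genes had ratios below 1. The median log2 ratio was -0.20 over the G2/M genes and -0.01 over the S genes, beside -0.05 over all genes. In cluster 8, with most crypt markers, the S ratio was 1.08 (1.06 to 1.11), from 1427 CPM in the model and 1318 CPM in the control library. In cluster 7 it was 0.976 (0.945 to 1.01), from 570 and 584 CPM, so the pooled S ratio below 1 did not hold within cluster 8. The G2/M ratio was 0.936 (0.921 to 0.951) in cluster 8 and 0.912 (0.896 to 0.927) in cluster 7.

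Among the S genes of crypt-like cells most intervals of the helicase subunits included 1. Mcm7 was the exception, with 89.1 CPM in the model against 97.9 CPM in the control library (ratio 0.910, 0.858 to 0.966). Mcm2 had 55.8 CPM in the model and 56.8 CPM in the control library, Mcm4 46.1 and 46.0 CPM, and Mcm6 83.5 and 84.0 CPM. Pcna, the clamp, had 187 CPM in the model against 175 CPM in the control library, the highest ratio of the list at 1.07 (1.02 to 1.12). Pclaf, a Pcna-binding factor, had 171 CPM in the model against 198 CPM in the control library, the lowest ratio of the S genes at 0.860 (0.825 to 0.897). Outside both sums, Stmn1 had 415 CPM in the model and 394 CPM in the control library, and Cks1b 73.2 and 74.6 CPM.

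The G2/M genes of crypt-like cells had ratios between 0.798 and 1.00. Ube2c, the ubiquitin-conjugating enzyme of the anaphase promoting complex, had 318 CPM in the model and 326 CPM in the control library. Birc5 (survivin) had 206 and 205 CPM, and Cdc20, the activator of that complex, 101 CPM in each. The ratios of these 3 genes lay between 0.977 and 1.00. Top2a, the topoisomerase that untangles chromosomes, had 254 CPM in the model against 313 CPM in the control library, a ratio of 0.810 (0.783 to 0.838). Tpx2, which activates Aurora A on the spindle, had 55.2 CPM in the model against 69.2 CPM in the control library and the lowest ratio at 0.798 (0.742 to 0.858). Aurkb and Plk1, mitotic kinases, had ratios of 0.804 and 0.816 and Cenpf, a kinetochore protein, had a ratio of 0.820. The intervals of these 5 genes lay below 1, but the direction of the G2/M sum turned in crypt-like cells when the cycle genes were kept in the clustering (log2 0.04) or each library was clustered alone (0.27). The S sum turned too, to 0.13 and 0.58. Single ratios, those of the S genes above included, also depended on the clustering. With cycle genes kept, 34 of the 35 members fell outside their main counting intervals. With a mitochondrial limit of 10% it was 21, while with CPM over all UMIs all 35 stayed inside.

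T-like cells also showed members on either side of 1. None of 35 was higher at 1.5-fold, against 2.05% of 9867 genes, and 1 was lower, against 3.64%. That 1 was Cdkn3, a phosphatase that acts on cyclin-dependent kinases, with 7.26 CPM in the model against 12.3 CPM in the control library and 48 UMIs in each (ratio 0.591, 0.388 to 0.901). No member was lower with each library clustered alone, in thinned cells, at a fold of 2 or without the 10 cells with most G2/M UMIs per library. The S sum had a ratio of 0.924 (0.883 to 0.968) and the G2/M sum 0.962 (0.922 to 1.00), beside a median log2 ratio of -0.03 over all genes. Mki67, the classical proliferation marker, had the highest ratio, 1.34 (1.18 to 1.53), with 115 CPM in the model against 85.7 CPM in the control library. Plk1 had 12.7 CPM in the model against 18.7 CPM in the control library, and Top2a 159 against 169 CPM. Of the 35 members, 12 had ratios above 1. Leaving out those 10 cells gave a log2 G2/M ratio of 0.18 beside -0.06 with all cells, an alternative added after the data were seen. The 10 cells are a larger share of the fewer control cells, so this step tends to raise the ratio by its design.

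The sums of T-like cells covered clusters on either side of 1. Cluster 4, led by Klre1, Il2rb, Gzma and Gzmb, held 757 CPM of G2/M genes in the model against 434 CPM in the control library (ratio 1.75, 1.60 to 1.90). Cluster 13, led by Ms4a4b, Ifng, Cd5 and Cd8b1, held 1042 against 1564 CPM (0.666, 0.612 to 0.724), and cluster 9, led by Trdc, Ccl3 and Ccl4, 922 against 1098 CPM (0.840, 0.787 to 0.895). The S sums had ratios of 0.990 in cluster 4, 0.980 in cluster 13 and 0.885 in cluster 9. A few cells stand behind these values: 50% of the G2/M UMIs of all T-like cells lay in 31 of 2248 cells of the model and 16 of 1098 cells of the control library.

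Plasma-like cells held more cycle transcripts in the model than in the control library. Of the 33 members with at least 50 UMIs, 18 were higher in the model library at 1.5-fold, against 4.66% of 7553 genes in these cells, and none was lower, against 3.79%. The 18 were 3 of 11 S genes, 13 of 20 G2/M genes, and Stmn1 and Cks1b, while Bub1 (39 UMIs in the model and 10 in the control library) and Aurka (35 and 13) stayed under 50 UMIs. The S sum had a ratio of 1.32 (1.23 to 1.42) and the G2/M sum 1.64 (1.55 to 1.73). The median log2 ratio was 0.38 over the S genes and 0.71 over the G2/M genes, beside 0.003 over all genes. More cells in cycle and more RNA per cell cannot be told apart in these sums.

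The 3 S genes past the size rule in plasma-like cells were all helicase subunits. Mcm5 had 26.9 CPM in the model against 10.8 CPM in the control library (ratio 2.503, 1.57 to 4.12). Mcm4 had 24.3 against 14.8 CPM, and Mcm7 48.3 against 29.6 CPM. The intervals of Mcm2, Mcm6, Rrm1 and Rrm2 included 1. Mcm6 had 49.9 CPM in the model against 43.0 CPM in the control library, and Rrm2 57.7 against 51.95 CPM, the lowest ratio of the list at 1.11 (0.874 to 1.42). Pcna had 125 CPM in the model against 99.4 CPM in the control library.

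The G2/M genes of plasma-like cells were led by Cdkn3, with 18.8 CPM in the model against 6.27 CPM in the control library from 58 and 14 UMIs (ratio 2.999, 1.65 to 5.82). Tpx2 had 40.2 against 16.6 CPM (2.43, 1.67 to 3.604), and Cenpf 58.0 against 25.5 CPM (2.27, 1.68 to 3.12). Ube2c and its partner Cdc20 had ratios of 2.11 and 2.10. Mki67, the member with most UMIs here, had 254 CPM in the model against 156 CPM in the control library (1.63, 1.43 to 1.85). Top2a was lowest, with 196 against 159 CPM (1.23, 1.08 to 1.41), and Cdk1, the mitotic kinase itself, had 65.5 against 46.6 CPM (1.41, 1.10 to 1.80). Tpx2 and Top2a, both near 0.8 in crypt-like cells, thus lay far apart in plasma-like cells.

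The larger plasma-like cluster had the higher ratio. Cluster 3, with 545 model and 377 control cells, 12 of 12 plasma markers and a median of 4614 and 5051 UMIs of genes other than immunoglobulin genes, had a G2/M ratio of 1.67 (1.58 to 1.77). Cluster 17, with 125 and 128 cells, 9 of 12 markers and a median of 1358 and 1124.5 such UMIs, had a ratio of 0.903 (0.695 to 1.17). After the cells were thinned to equal depth, the log2 G2/M ratio of plasma-like cells was 0.58 and only 8 members kept 50 UMIs, 3 of them past 1.5-fold. The share over all genes was not found for thinned cells. In all, 50% of the G2/M UMIs lay in 21 of 670 model and 11 of 505 control plasma-like cells.

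**Figure D3:**
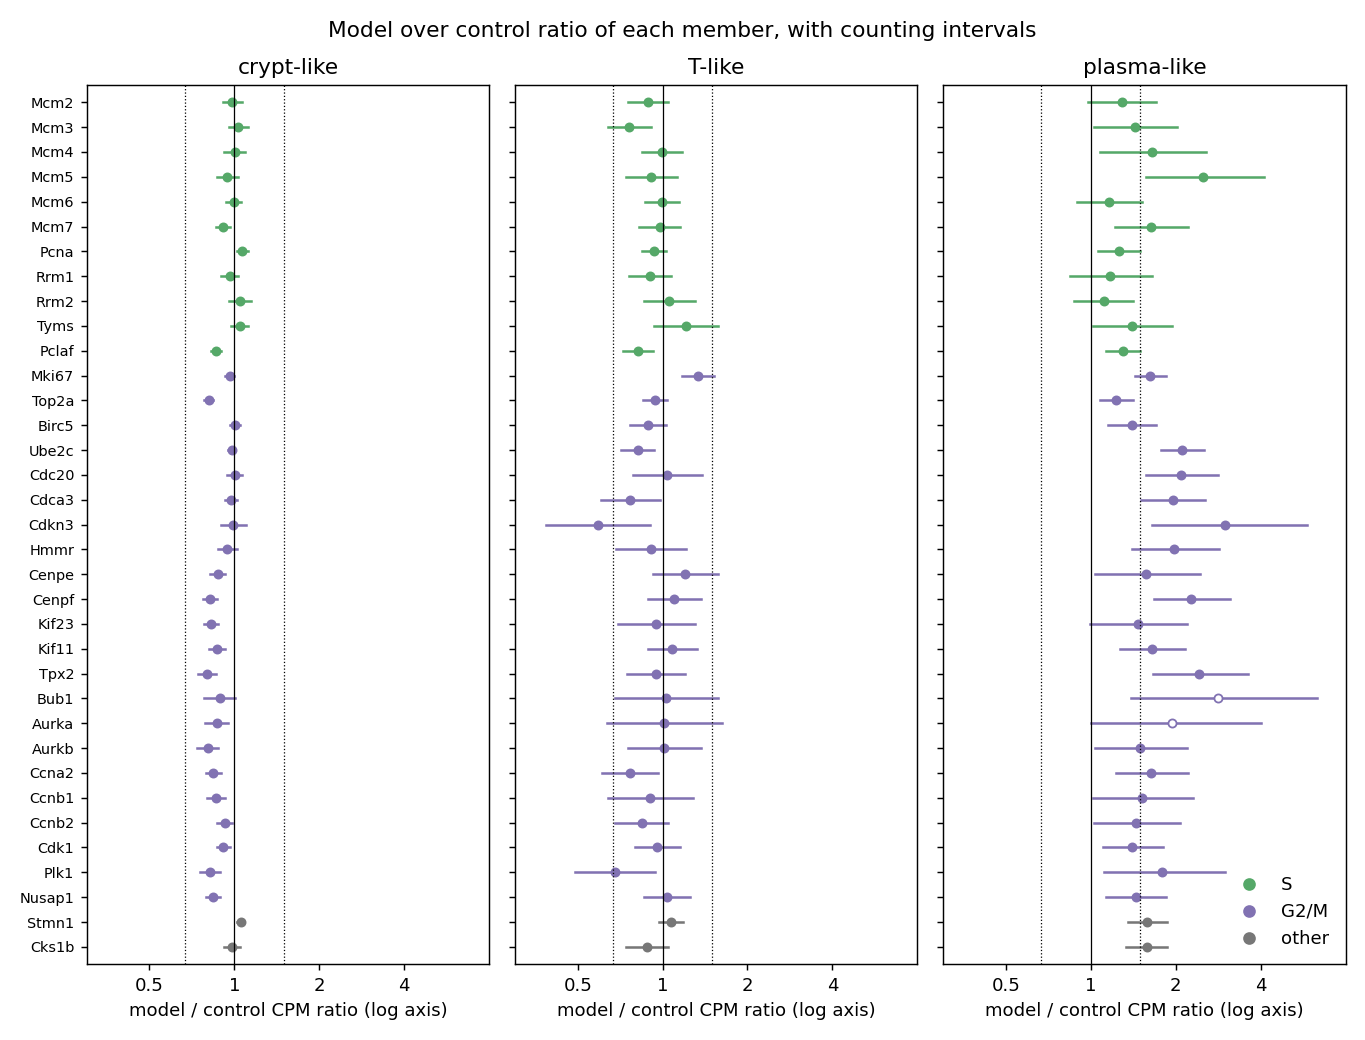
Model over control ratio of CPM (horizontal log axis) for each of the 35 members in crypt-like, T-like and plasma-like cells, with exact binomial 95% intervals of counting error, dotted lines at 1.5 and its inverse, and open points for members under 50 UMIs. Points stay inside the dotted lines in crypt-like cells, 1 (Cdkn3) lies below them in T-like cells, and 18 filled points lie above them in plasma-like cells.

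To compare cells rather than sums, each cell was thinned to 1000 UMIs of genes other than immunoglobulin genes, shallower cells were left out, and a cell was counted when it held at least 3 UMIs of the 33 S and G2/M genes. This is a cut on a count and not a cell type. Enterocyte-like cells, which should not divide, were taken as the background. There 6 of 1235 model cells (0.486%) and 8 of 1777 control cells (0.450%) were counted. Whether the cycle UMIs of enterocyte-like cells were free RNA or their own was not tested. In crypt-like cells 525 of 1208 model cells (43.5%) and 428 of 892 control cells (48.0%) were counted. That direction turned with a mitochondrial limit of 10% (359 of 608 model and 245 of 432 control cells), with cycle genes kept in the clustering (588 of 1025 and 461 of 843) and with each library clustered alone (464 of 810 and 498 of 1192). In plasma-like cells it was 81 of 636 model cells (12.7%, 10.2 to 15.6) and 40 of 454 control cells (8.81%, 6.37 to 11.8), and the intervals overlapped. T-like cells gave 135 of 2176 (6.20%) and 68 of 1065 (6.39%), and B-like cells 45 of 267 in the model library (16.9%). Enterocyte-like cells gave 20.1% and 7.74% without thinning. The shares were then 92.8% and 92.4% in crypt-like, 21.8% and 19.4% in plasma-like and 21.5% and 26.4% in T-like cells of the model and control library. The median count of UMIs of genes other than immunoglobulin genes was 17269 and 17805 in crypt-like, 4259.5 and 4435 in plasma-like, 2748 and 3221 in T-like cells, and 6981 and 4274.5 in enterocyte-like cells of the model and control library.

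The counts per cell were spread differently by class. In T-like cells 3.22% of model and 3.47% of control cells held 8 or more cycle UMIs, and 2.99% and 2.91% held 3 to 7. Exactly 3 UMIs were held by 35 model and 15 control cells, and in plasma-like cells by 13 and 8. In crypt-like cells 9.69% of model and 10.99% of control cells held 8 or more, and 33.8% and 37.0% held 3 to 7. Plasma-like cells held 8 or more in 6.13% of model and 3.30% of control cells, and 3 to 7 in 6.60% and 5.51%. No enterocyte-like cell of 1235 or 1777 reached 8.

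**Figure D4:**
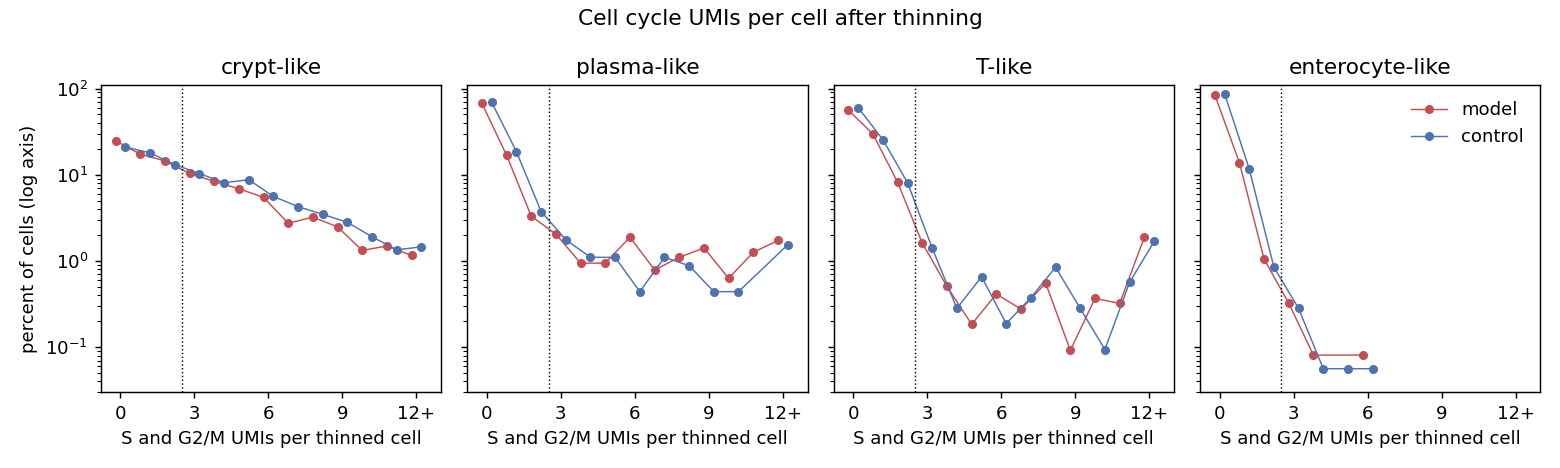
Percent of cells (vertical log axis, points joined by lines, empty counts left out) by the number of S and G2/M UMIs per cell after thinning to 1000 UMIs (horizontal axis, 12 and above pooled), model beside control, with a dotted line at the cut of 3. Of T-like cells 3.22% and 3.47% hold 8 or more UMIs, of plasma-like cells 6.13% and 3.30%, and no enterocyte-like cell does.

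Counted cells mostly held genes of both groups. In T-like cells 69.6% of model and 73.5% of control counted cells had S and G2/M UMIs together, and 18.5% and 20.6% had S UMIs alone. In plasma-like cells 72.8% and 72.5% had both, and S UMIs alone were in 3 of 81 model and 0 of 40 control cells, a count of 0 that allows up to 8.81%. Crypt-like counted cells had S UMIs alone in 7.05% and 6.07% and G2/M UMIs alone in 32.95% and 33.4%. Among B-like counted cells of the model library 9 of 45 had S UMIs alone and 1 had G2/M UMIs alone. No phase was assigned to any cell.

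T-like and crypt-like cells were also divided by a marker UMI in the thinned cells. Trdc, the gamma-delta T cell receptor constant gene, had a UMI in 36.4% of model and 41.7% of control T-like cells, beside 0.729% and 0.507% of enterocyte-like cells, which should lack it. Of T-like cells with a Trdc UMI, 59 of 792 model cells (7.45%, 5.72 to 9.504) and 17 of 444 control cells (3.83%, 2.25 to 6.06) were counted. Of those without one it was 76 of 1384 (5.49%, 4.35 to 6.83) and 51 of 621 (8.21%, 6.18 to 10.7). At this depth cells without the UMI can still express Trdc, and the difference between these divisions was not tested. Cluster 9, led by Trdc, did not go the same way, with 45 of 730 model cells (6.16%) and 29 of 428 control cells (6.78%) counted. With a Cd8b1 UMI 7 of 125 model and 2 of 51 control cells were counted. With a Cd4 UMI it was 1 of 36 and 1 of 16. Olfm4, a stem cell marker, had a UMI in 44.5% of model and 49.2% of control crypt-like cells, beside 3.48% and 3.66% of enterocyte-like cells. Crypt-like cells with it were counted in 51.2% of the model and 54.9% of the control library, and those without in 37.3% and 41.3%. Lgr5, another stem cell marker, had a UMI in too few cells to be read this way. Among those with a UMI, 13 of 30 model cells (43.3%, 25.5 to 62.6) and 9 of 23 control cells (39.1%, 19.7 to 61.5) were counted. Among those without it was 43.5% and 48.2%. The Lgr5 intervals include the shares of cells with and without Olfm4 in the same library.

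Where a gene's UMIs lay was then asked for each member, with cells counted by the other 32 genes. In T-like cells most G2/M UMIs lay in the counted cells: 75.9% (Cdk1) to 97.7% (Ccnb1) of their UMIs in the model library and 66.7% (Aurka) to 96.0% (Nusap1) in the control library, while those cells held about 11.8% and 12.9% of all UMIs. Of the S genes, Pclaf followed them with 90.1% and 85.9%, and Rrm2 with 83.5% and 81.0%. Tyms, at 66.1% and 62.0%, lay between them and the other S genes. Mcm4 had only 27.5% and 27.9% there, Mcm6 28.2% and 28.5%, and Pcna 32.1% and 35.7%. The 6 MCM genes, Pcna and Rrm1, a split made after the values were seen, ranged up to 53.2% and 52.6% (Mcm3). In plasma-like cells the same 8 genes reached 59.7% to 77.8% in the model and 45.1% to 83.3% in the control library, with 23.6% and 14.9% of all UMIs in those cells.

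**Figure D5:**
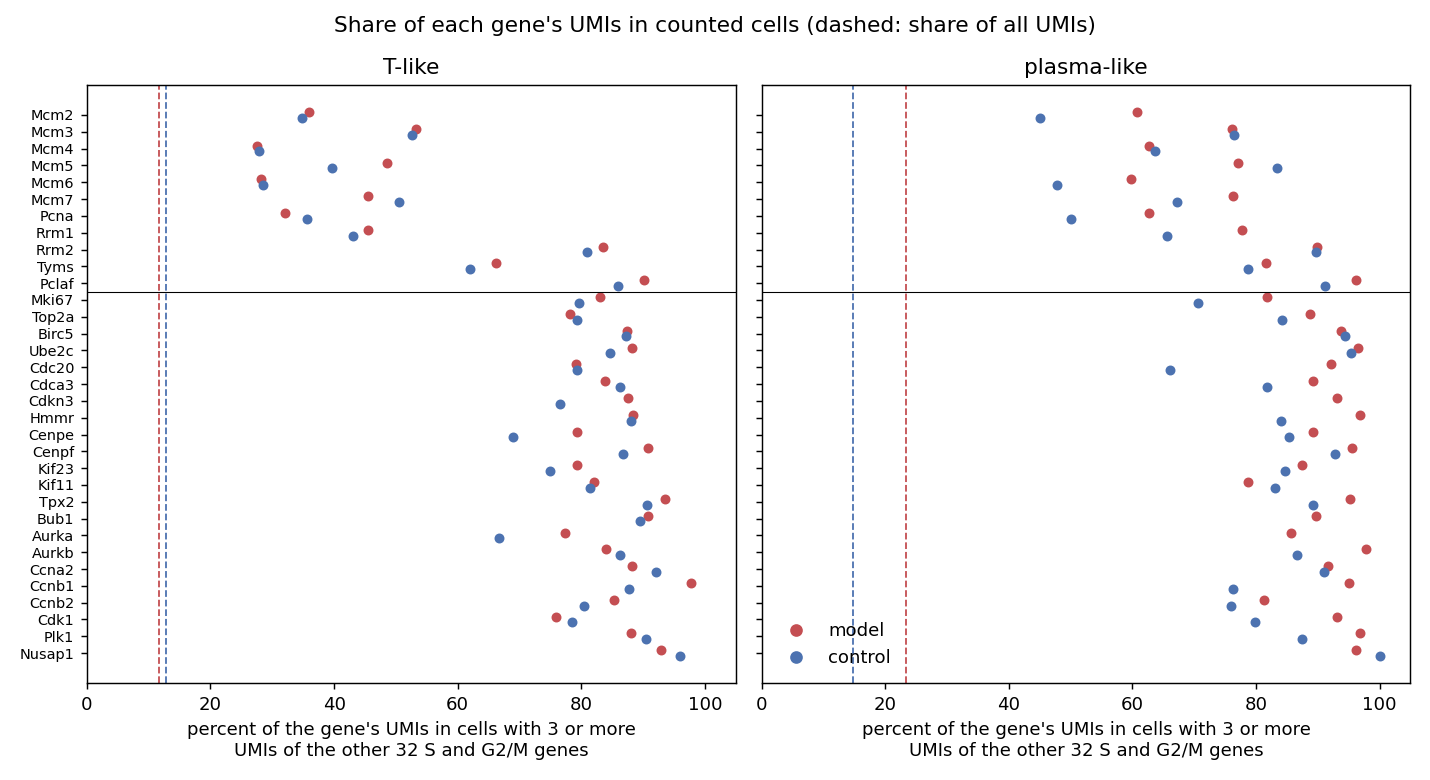
Percent of each gene's UMIs (horizontal axis) that lay in cells with 3 or more UMIs of the other 32 S and G2/M genes, in T-like and plasma-like cells of both libraries, with dashed lines at those cells' share of all UMIs (11.8% and 12.9% in T-like, 23.6% and 14.9% in plasma-like cells of the model and control library). In T-like cells the MCM genes, Pcna and Rrm1 lie left of all other members, Mcm4 at 27.5% and 27.9%.

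S genes were then read in cells without a single G2/M UMI at full depth. Among T-like cells there were 1557 in the model and 740 in the control library, with a median of 2615 and 3048.5 UMIs. Their 6 MCM genes summed to 214 CPM in the model and 202 CPM in the control library. Enterocyte-like cells without a G2/M UMI held 21.4 and 16.7 CPM, at a median of 6255 and 4064 UMIs. The ratio of T-like over enterocyte-like cells was 10.0 (8.38 to 12.01) in the model and 12.1 (9.85 to 14.9) in the control library. Rrm1 stood 9.29-fold and 12.6-fold over enterocyte-like cells, and Mcm6 10.4-fold and 13.9-fold. Pclaf did not stand out, with 3.66 and 3.11 CPM in T-like against 2.38 and 2.67 CPM in enterocyte-like cells, and Pcna was 2.12-fold and 2.44-fold higher. MCM and Rrm1 transcripts were thus present in T-like cells in which no mitotic transcript was seen, and in another proportion to Pclaf than in enterocyte-like cells. At this depth a missing G2/M UMI does not show that a cell was outside the cycle. Crypt-like cells without a G2/M UMI, 84 and 54 at a median of 9318 and 8163.5 UMIs, held 194 and 133 CPM of MCM genes. Their Pclaf had 8.62 CPM in the model and 11.7 CPM in the control library. Macrophage-like cells without a G2/M UMI held 95.5 and 63.0 CPM of MCM genes, so such transcripts were not particular to lymphocytes.

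Plasma-like cells without a G2/M UMI had far fewer MCM transcripts, 56.4 CPM in 395 model cells and 55.3 CPM in 287 control cells, 2.64-fold and 3.31-fold over enterocyte-like cells. The interval of their Pcna ratio over enterocyte-like cells included 1, with 51.7 CPM in the model and 48.8 CPM in the control library against 56.3 and 49.5 CPM. The S sum of these cells was 131 CPM in the model and 133 CPM in the control library, beside 673 and 509 CPM over all plasma-like cells. B-like cells without a G2/M UMI (183, model library) held 191 CPM of MCM genes, close to T-like cells, and 0 UMIs of Rrm2, which allows up to 9.28 CPM.

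Stmn1 and Cks1b took no part in the count and followed it. Cells with 0 cycle UMIs after thinning are called uncounted from here on, and their levels were taken at full depth. Stmn1, a tubulin-destabilising protein, had 1262 CPM in counted and 15.5 CPM in uncounted T-like cells of the model library. It had 1059 and 15.6 CPM in the control library. The ratios were 81.4 (61.8 to 110) and 68.0 (47.8 to 99.8). In plasma-like cells they were 23.8 and 34.7, and in crypt-like cells 4.89 and 3.43, with 601 against 123 CPM in the model and 528 against 154 CPM in the control library. Cks1b, a docking subunit of cyclin-dependent kinases, gave 48.7 and 50.5 in T-like, 12.82 and 9.80 in plasma-like and 7.21 and 6.34 in crypt-like cells of the model and control library. Stmn1 was thus higher in crypt-like than in T-like cells among the uncounted. Uncounted crypt-like cells numbered 299 in the model and 187 in the control library. Only 84 and 54 crypt-like cells lacked a G2/M UMI at full depth, so most uncounted ones held such UMIs there. The ratios of crypt-like and T-like cells are therefore not directly comparable.

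Markers of other cell types were read in the counted plasma-like cells. The 8 goblet markers summed to 2277 CPM in counted and 502 CPM in uncounted plasma-like cells of the model library, against 275 and 524 CPM in the control library. The 18 crypt markers summed to 778 and 524 CPM in the model and 668 and 391 CPM in the control library, with 2 and 5 of them at 0 in the counted cells. The 11 non-cycle plasma markers summed to 44370 CPM in counted and 144600 CPM in uncounted cells of the model library, and to 50050 and 149900 CPM in the control library. Enterocyte markers summed to 773 and 3061 CPM in the model and 1208 and 2494 CPM in the control library, with none at 0. B markers summed to 405 and 754 CPM in the model and 384 and 796 CPM in the control library. Their part in the plasma-like result was not tested. Without plasma-like cells in which crypt, enterocyte and goblet markers passed 1% of UMIs the counts were 79 of 595 model and 36 of 402 control cells. The log2 G2/M ratio was then 0.72 beside 0.71, and 18 members again passed the size rule, with no share over all genes found for this setting. In T-like cells the enterocyte markers were lower in counted than in uncounted cells, 771 and 1459 CPM in the model and 883 and 1861 CPM in the control library.

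B-like cells, nearly all from the model library, passed 10 of 10 B cell markers and were described alone. Pclaf had 366 CPM there, beside 171 CPM in crypt-like, 186 CPM in plasma-like and 96.6 CPM in T-like cells of the same library. Pcna had 257 CPM and Mcm7 127 CPM. Among G2/M genes, Top2a had 243 CPM, beside 254 CPM in crypt-like cells, and Aurkb, the kinase of the chromosomal passenger complex, 49.5 CPM beside 38.1 CPM. Ube2c, at 123 CPM, was below its crypt-like 318 CPM. 6 of the 279 cells held 50% of the G2/M UMIs, so these levels rest on few cells.

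A wider list of 199 cycle genes was read beside the members. In crypt-like cells 0 of 196 measured genes were higher, against 2.41% of all genes, and 4 were lower, against 4.95%, no larger shares than over all genes. The 4 were Cdkn1c (ratio 0.580 from 42 and 52 UMIs), Ccnd1 (0.640), the E2 enzyme Ube2s (0.654) and the helicase Blm (0.666). Ccnd1, the cyclin that carries mitogen signals into G1, had 208 CPM in the model against 325 CPM in the control library. The other D cyclins had 484 against 582 CPM (Ccnd2) and 21.5 against 17.8 CPM (Ccnd3). The highest ratios were those of Gins3 (1.32), Cdkn2b (1.29) and Gmnn (1.23), and the inhibitor Cdkn1a had 160 CPM in the model against 130 CPM in the control library. The median log2 ratio of the list was -0.12, and of its 26 spindle, condensin and cytokinesis genes -0.26.

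In T-like cells 2 of 178 measured genes of the list were higher, Ccnf (1.60) and Pimreg (1.54), against 2.05% of all genes, and 7 were lower, against 3.64%, shares near those over all genes. The lowest were Ttk (0.558), Ube2s (0.574) and Cenph (0.591). All of these 5 had under 100 UMIs in all. Ccnd2 was abundant, with 627 CPM in the model and 673 CPM in the control library, and Cdkn1b, the inhibitor p27, had 175 and 178 CPM. Cdkn1a had 19.2 CPM in the model against 28.7 CPM in the control library. In plasma-like cells 37 of 144 measured genes were higher, against 4.66% of all genes, and 0 were lower, against 3.79%. The highest were Cdca7 (3.02), the clamp loader subunit Rfc3 (2.83) and the inhibitor Cdkn2d (2.59), and the lowest Cdk7 (0.766), Tk1 (0.786) and Ccnd2 (0.789). By role, 6 of 20 G1 cyclin, CDK and E2F-RB genes, 1 of 4 CDK inhibitors, 1 of 9 licensing genes, 7 of 29 fork and nucleotide genes and 2 of 5 DREAM, B-MYB and FOXM1 genes were higher. So were 6 of 17 kinetochore and checkpoint genes, 4 of 21 spindle genes, 1 of 10 anaphase promoting complex genes and 9 of 29 genes of chromatin and tubulin. Within the G1 group, whose median log2 ratio was 0.16, Ccnd2 had 270 CPM in the model against 342 CPM in the control library.

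D cyclins and kinase inhibitors also differed between counted and uncounted cells, with some in the same direction in both crypt-like and T-like cells. In crypt-like cells Cdkn2b was lower in counted cells, with 36.3 against 119 CPM in the model and 31.1 against 91.98 CPM in the control library, and Cdkn1a had ratios of 0.499 and 0.433. Ccnd1 and Ccnd2 were higher there, as was Cdkn1b (1.74-fold in the model and 1.64-fold in the control library), by 1.81-fold and 1.73-fold in the model and 1.499-fold and 1.55-fold in the control library. Cdkn2c was higher in counted crypt-like cells by 3.78-fold and 3.39-fold and Cdkn2d by 5.65-fold and 2.97-fold. Counted and uncounted crypt-like cells also differed in enterocyte markers, 2466 and 9682 CPM in the model and 1976 and 5692 CPM in the control library. Crypt markers summed to 3209 and 1381 CPM in the model and 3785 and 2701 CPM in the control library. The part of this difference in the crypt-like ratios, those of Stmn1 and Cks1b included, was not tested. In T-like cells Ccnd2 was instead lower in counted cells, with 391 against 673 CPM in the model and 312 against 756 CPM in the control library. Cdkn1b was lower too (ratios 0.598 and 0.756), while Cdkn2c was again higher by 8.03-fold and 8.78-fold and Cdkn2d by 2.44-fold and 3.15-fold. The D cyclin Ccnd2 thus went with the count in crypt-like cells and against it in T-like cells of either library, and in plasma-like cells its ratios of 0.992 and 1.14 had intervals that included 1.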

How the data were processed

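Values used are the authors' deposited counts: unnormalised whole numbers of UMIs for each gene in each barcode, as the file headers record for Cell Ranger 7.0.1. The submitters' processing notes give version 4.0 instead, with the GRCm39 build. The annotation, and whether intronic reads were included, was not given in the sources used here. The model library held 76701215 UMIs in 11468 barcodes and the control library 61370270 in 10259.

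Cells needed 500 UMIs, 200 genes and no more than 25% mitochondrial UMIs. Both libraries were clustered together in scanpy 1.11.5 (2000 variable genes, 30 principal components, 15 neighbours, Leiden resolution 1). Clusters were named where 3 markers stood 2-fold up and in 10% of cells, and clusters of mostly low-RNA cells stayed unnamed. Scrublet called 0 doublets in either library, so it did not work and none were removed. UMIs were summed per class and library and scaled to CPM without immunoglobulin genes. Ratios were given exact binomial, levels exact Poisson and shares Clopper-Pearson intervals (scipy 1.17.1). Cells were thinned once to 1000 UMIs. The ratio step was tested on simulated counts drawn independently. That test does not cover UMIs gathered in few cells, as the G2/M UMIs were here.

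The members and lists were chosen with earlier results of these data known. Named besides the 35 members are D cyclins and kinase inhibitors with at least 50 UMIs and the 3 highest and 3 lowest genes of the wider list per class. Blm was named as the remaining lower gene of crypt-like cells, after its value was seen. Alternatives are given in the closing section.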

Additional observations from a re-analysis of the deposited data

Results flagged for a closer look

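The model over control ratio of the G2/M sum lay above 1 in plasma-like cells (1.64) and below 1 in crypt-like cells (0.903), with counting intervals on opposite sides of 1. With 1 library per group the difference between these classes was not tested.

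Among T-like cells the ratio of the G2/M sum was 1.75 in cluster 4, 0.840 in cluster 9 and 0.666 in cluster 13. These clusters had 61, 45 and 29 counted cells in the model and 19, 29 and 20 in the control library, and the difference between them was not tested either.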

How the results depend on the processing

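No paired analysis was possible because each group had 1 library. All values here are log2 ratios of model over control unless called counts; the main values were -0.04 (S) and -0.15 (G2/M) in crypt-like, -0.11 and -0.06 in T-like, and 0.40 and 0.71 in plasma-like cells. The plasma-like S, G2/M and share values stayed above 0 in every alternative run. Where values moved beyond counting error, the cause was not tested. Shares over all genes were found for the main rule only, so counts of members under alternatives have no such share beside them.

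Crypt-like S, G2/M and share values became 0.0752, -0.0377 and 0.0582 with a mitochondrial limit of 10%, 0.13, 0.0368 and 0.0690 with cycle genes kept in the clustering, and 0.58, 0.27 and 0.46 with each library clustered alone, where 6 members were higher. S and G2/M were 0.00285 and -0.13 with no mitochondrial limit and 0.13 and -0.10 with cells named by marker score. G2/M was -0.12 with at least 1000 UMIs, -0.16 without mitochondrial genes in CPM and -0.13 without the highest Scrublet scores; thinned cells gave an S value of -0.11 and 1 member lower.

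In T-like cells S and G2/M were -0.0268 and 0.0106 with libraries clustered alone, 0.0612 and 0.0879 in thinned cells and 0.00411 and 0.18 without the 10 cells with most G2/M UMIs. The count of lower members was 2 with the 10% limit and without the highest Scrublet scores, and 0 with libraries clustered alone, thinned cells, a fold of 2 or without those 10 cells; thinned cells had 1 higher.

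Plasma-like G2/M was 0.88 with the 10% limit, 0.82 with cycle genes kept and 0.94 without the highest Scrublet scores. S was 0.27 with libraries clustered alone. Thinned cells gave 0.21 and 0.58, with 3 members higher of 8 measured, and a fold of 2 gave 6 higher. Leaving out the 10 cells gave 0.52 and 1.16. This rise is partly built in, as 50% of the G2/M UMIs lay in 21 model and 11 control cells. The alternatives without those 10 cells and without cells rich in epithelial markers, were chosen after seeing the data. Depth limits single members most in plasma-like cells, where Bub1 and Aurka had under 50 UMIs together.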

Other observations

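Classes outside the comparisons also held cycling transcripts. Goblet-like cells fell into cluster 22, led by Agr2 and Spink4, in which 28 of 85 model cells (32.9%) and 28 of 87 control cells (32.2%) were counted, and cluster 0, led by Clca1, Zg16 and Muc2, with 1 of 245 and 2 of 230. The G2/M sum over all goblet-like cells was 904 CPM in the model and 1445 CPM in the control library, but within cluster 22 its ratio was 0.885 (0.850 to 0.921). Dendritic-like cells were counted in 15 of 84 model and 10 of 58 control cells, enteroendocrine-like cells in 16 of 125 and 9 of 78, tuft-like cells in 7 of 62 and 7 of 77, and macrophage-like cells in 5 of 174 and 9 of 197.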
